A study of Homo sapiens with 6 samples.

Results

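Integrins and focal adhesion proteins were compared between T98G and U87MG, both established lines from human glioblastoma, profiled on Affymetrix expression arrays. The members were all integrin-named genes (symbols beginning ITGA or ITGB) and 16 named focal adhesion genes, each represented by its probe set with the highest mean over the 6 arrays. This gave 41 genes out of 11963 with a probe set of 1 gene symbol, of which 27 were integrin-named and 14 came from the named set, while LIMS1 and BCAR1 were not analysed here. The members were measured by 86 probe sets. T98G and U87MG had 3 arrays each. Both lines were grown in DMEM with fetal bovine serum, and the labels give no treatment, clone or passage for either. The labels present T98G as sensitive to apoptosis by bortezomib and the isopeptidase inhibitor G5, and U87MG as resistant to that apoptosis but sensitive to necrosis by G5, to which T98G is said to be partly resistant. Each line is a single tumour-derived line, so a difference between them is a difference between these lines.

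Integrins are cell-surface receptors made of an alpha and a beta subunit, and the pair decides which matrix protein or cell-surface ligand is bound. Their cytoplasmic tails carry no enzyme. Talin and kindlin bind the beta tail and switch the receptor on, vinculin, parvins and zyxin tie it to actin, and focal adhesion kinase with adaptors of the paxillin and Cas families passes the signal on. In glioblastoma, integrins are known for attachment to and movement along the brain's matrix and vessel walls.

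Values are deposited log2 expression values per probe set, given as mean ± SD over the 3 arrays of a line (n = 3), with every difference taken as T98G minus U87MG. A probe set's brightness depends on its probes, so levels were compared between lines and not between genes. A gene was called different at a limma adjusted p under 0.05, Benjamini-Hochberg over all 11963 genes, together with at least a 2-fold difference. The labels do not state whether the 3 arrays of a line came from separate cultures, so the spread behind the p-values may be technical. Deposited values had array medians of 7.55 to 7.65, and arrays of 1 line correlated at 0.990 to 0.997 across probe sets, against 0.934 to 0.939 between lines. On U87MG replicate 3 the probe sets of the added poly-A controls averaged 5.30, and on the remaining 5 arrays 6.10 to 6.84. Bacterial control probe sets for a transcript not added to the samples read 3.32 to 4.03, and the lowest value of any member's representative probe set was 4.77. With RNA from whole cultures, fewer cells that make a transcript and less of it per cell cannot be told apart.

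Of the 41 members, 5 were called higher and 5 lower in T98G, and 31 were not called. The members called higher were 12.2% of the set, against 7.01% of all genes, and those called lower also 12.2%, against 6.56% of all genes. In either direction that was 24.4% of members and 13.6% of all genes. Receptor subunits made up most of the set, with 16 alpha and 7 beta subunit genes of the 41. Of these, ITGA4, ITGA8, ITGA6 and ITGB8 were called higher in T98G, and ITGA7, ITGA5 and ITGB3 lower. The other called members were ITGBL1, higher in T98G, and the adaptor gene LPXN and the talin gene TLN1, both lower. The median difference of the members was -0.02, against 0.01 over all genes. On the adjusted p alone, 9 members (against 21.7% of all genes) were higher and 13 (against 19.7%) lower, together 53.7% of members against 41.3% of all genes. The arrays of the lines did not overlap for 22 members (53.7%), a share close to the 52.0% of all genes.

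**Figure D1:**
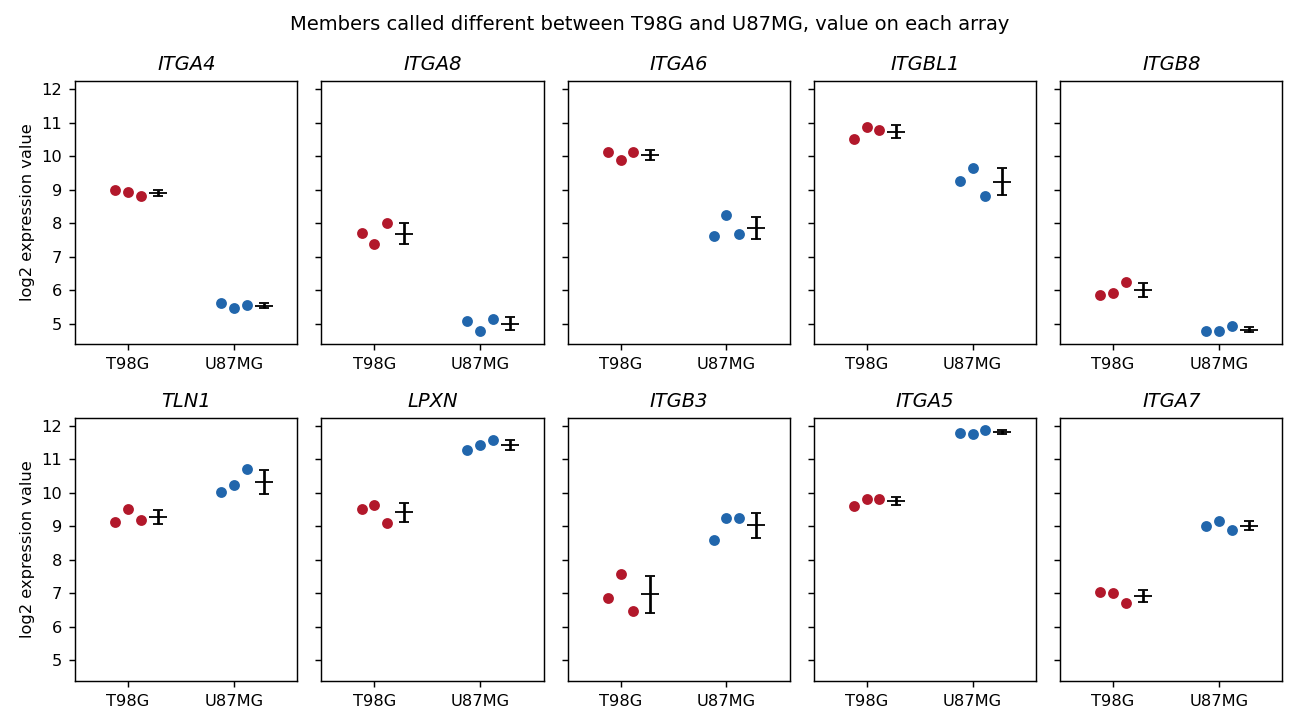
Log2 expression value (y axis) of the 10 called members on each of the 3 T98G arrays (red) and 3 U87MG arrays (blue), with mean and SD in black. ITGA4, ITGA8, ITGA6, ITGBL1 and ITGB8 lay higher on every T98G array, and TLN1, LPXN, ITGB3, ITGA5 and ITGA7 lay lower, with no overlap between lines.

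Among 16 alpha subunit genes, 3 were higher and 2 lower in T98G. ITGA4, whose product pairs with ITGB1 or ITGB7 and binds VCAM1 and fibronectin, had 8.98, 8.92 and 8.80 on the T98G arrays, against 5.61, 5.47 and 5.55 on the U87MG arrays. The lines were far apart relative to the spread within either, at 8.90 ± 0.09 in T98G and 5.54 ± 0.07 in U87MG. This was the widest difference of any member, 10.2-fold (log2 3.36, SE 0.10, limma adjusted p = 1.06e-08), and all 3 ITGA4 probe sets were called the same way, at log2 3.32 to 3.77. On the other 2 probe sets some U87MG arrays were within the range of the control probe sets, and with values under 4.03 set to 4.03 the differences were at least 9.02-fold and at least 12.9-fold. ITGA5, which with ITGB1 forms the classical fibronectin receptor, had 9.61, 9.82 and 9.80 on the T98G arrays, against 11.78, 11.76 and 11.88 on the U87MG arrays. It was thus lower on every T98G array, by 4.17-fold (log2 -2.06, SE 0.10, limma adjusted p = 2.65e-07) on its single probe set. ITGA4 and ITGA5, which share fibronectin as a ligand, thus differed in opposite directions.

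ITGA8, whose product joins ITGB1 to bind ligands with an RGD motif such as nephronectin, had 7.70, 7.36 and 8.01 on the T98G arrays, against 5.08, 4.77 and 5.15 on the U87MG arrays. All T98G arrays were higher, by 6.45-fold (log2 2.69, SE 0.17, limma adjusted p = 1.35e-06) on its single probe set. The promoters of ITGA4, ITGA8 and ITGA5 are shown because these are the called alpha subunit genes with a single listed start, a choice made after their values were seen. Each stretch runs from 250 bases before to 50 bases after the RefSeq gene start (GRCh38.p14), written along the gene's strand, at chr2:181457136-181457435 on the plus strand for ITGA4, chr10:15719873-15720172 on the minus strand for ITGA8 and chr12:54419217-54419516 on the minus strand for ITGA5. Capitals mark GC boxes (GGGCGG on either strand) and AP-1 elements (TGANTCA).
ITGA4: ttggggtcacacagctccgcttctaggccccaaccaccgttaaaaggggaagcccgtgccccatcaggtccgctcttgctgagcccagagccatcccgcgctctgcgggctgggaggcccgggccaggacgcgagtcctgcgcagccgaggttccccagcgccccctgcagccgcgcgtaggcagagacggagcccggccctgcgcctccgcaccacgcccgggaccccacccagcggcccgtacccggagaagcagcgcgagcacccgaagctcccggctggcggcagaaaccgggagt
ITGA8: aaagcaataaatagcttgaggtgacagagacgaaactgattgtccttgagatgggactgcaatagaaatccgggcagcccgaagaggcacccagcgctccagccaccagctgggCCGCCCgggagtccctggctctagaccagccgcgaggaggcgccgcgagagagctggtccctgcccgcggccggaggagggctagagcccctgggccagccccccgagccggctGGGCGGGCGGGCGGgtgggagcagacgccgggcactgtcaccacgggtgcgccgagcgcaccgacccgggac
ITGA5: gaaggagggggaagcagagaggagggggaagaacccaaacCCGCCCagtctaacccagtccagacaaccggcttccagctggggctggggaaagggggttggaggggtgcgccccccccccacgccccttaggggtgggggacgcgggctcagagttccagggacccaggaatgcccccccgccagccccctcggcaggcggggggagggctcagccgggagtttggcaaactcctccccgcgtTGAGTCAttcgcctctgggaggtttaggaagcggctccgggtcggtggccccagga
The ITGA4 stretch had neither motif, the ITGA8 stretch had 4 GC boxes, of which 3 overlap in a row, and the ITGA5 stretch had 1 GC box and 1 AP-1 element. A CCAAT box (CCAAT) or a TATA box (TATAAA) was in none of the 3 stretches on either strand. Their GC content was 72.3% for ITGA4 and 69.3% each for ITGA8 and ITGA5, against a median of 58.7% over all 34943 promoter windows. Over all windows 44.9% held a GC box and 7.72% an AP-1 element. Promoter windows were listed for 30 of the 41 members, 47 windows in all, with a median GC content of 61.3%. Of these windows 57.4% held a GC box and 4.26% an AP-1 element. The 2 member genes with an AP-1 element were ITGA5 and LPXN, the latter in 1 of its 2 windows, both of them lower in T98G. TLN1, the other lower member with a window, had no AP-1 element, and ITGA7 and ITGB3 had no listed window. A link of the motif to the direction of a difference was not tested. A match to these letters is a description of the window and not a measured binding site.

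The laminin-binding subunit genes also went both ways. ITGA6, a laminin receptor subunit that pairs with ITGB1 or ITGB4, had 10.12, 9.88 and 10.11 on the T98G arrays, against 7.62, 8.24 and 7.69 on the U87MG arrays. The lines did not overlap, and ITGA6 was 4.55-fold higher in T98G (log2 2.19, SE 0.16, limma adjusted p = 4.78e-06), with log2 2.11 on its second probe set. ITGA7, a laminin receptor subunit best known from muscle, had 7.05, 7.01 and 6.73 on the T98G arrays, against 9.01, 9.15 and 8.88 on the U87MG arrays. It was lower on all T98G arrays, by 4.23-fold (log2 -2.08, SE 0.12, limma adjusted p = 8.84e-07), and its second probe set gave log2 -3.34. ITGA3, another laminin-binding subunit, had 10.86 ± 0.21 in T98G and 11.44 ± 0.13 in U87MG, a difference of -0.58 (95% interval -0.88 to -0.29, limma adjusted p = 0.00496) that was short of 2-fold.

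The other 10 alpha subunit genes were not called. ITGA10, a collagen receptor subunit of cartilage, came closest to the 2-fold minimum, at 7.36 ± 0.09 in T98G and 8.08 ± 0.16 in U87MG (log2 -0.71, 95% interval -0.97 to -0.46, limma adjusted p = 6.93e-04). ITGAV, which pairs with several beta subunits to bind vitronectin and other RGD ligands, had 11.94 ± 0.05 in T98G and 11.48 ± 0.29 in U87MG (log2 0.45, 0.13 to 0.78, limma adjusted p = 0.0299). ITGAE, which with ITGB7 binds E-cadherin, had 12.45 ± 0.03 in T98G and 11.98 ± 0.06 in U87MG (log2 0.47, 0.26 to 0.68, limma adjusted p = 0.00269). The collagen receptor subunit genes ITGA2 and ITGA1 had differences of 0.22 (-0.09 to 0.54) and 0.16 (-0.30 to 0.61), and ITGA9, a receptor subunit for tenascin-C and VCAM1, -0.04 (-0.38 to 0.31). For these 3 the lines overlapped and the intervals included 0.

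ITGB2, its leukocyte partner subunits and the platelet subunit ITGA2B were not called. The leukocyte subunit genes ITGAX, ITGAL and ITGAM had differences of 0.24, -0.03 and -0.02, with levels of 6.75 ± 0.21, 6.02 ± 0.08 and 6.15 ± 0.09 in T98G and 6.51 ± 0.31, 6.05 ± 0.22 and 6.17 ± 0.16 in U87MG. ITGB2, their shared beta subunit, had 5.38, 5.51 and 5.62 on the T98G arrays, against 4.86, 4.81 and 4.97 on the U87MG arrays. Its arrays did not overlap, at log2 0.62 (0.38 to 0.86, limma adjusted p = 0.00107), short of 2-fold. The ITGAM probe sets disagreed, the second giving log2 0.55 (0.19 to 0.92) without overlap between lines and short of 2-fold. The brightest probe set alone thus does not show equal ITGAM levels. Leukocyte markers had a mean log2 value over 11 genes of 6.33 to 6.41 on T98G arrays and 5.93 to 6.06 on U87MG arrays, but LAPTM5 carried that gap. Without it the mean over 10 genes was 5.85 to 5.92 on T98G arrays and 5.88 to 5.96 on U87MG arrays. Of these 11, 1 was called higher in T98G, LAPTM5, at 11.12 ± 0.21 in T98G and 6.64 ± 0.35 in U87MG, and 0 lower, where limma's unadjusted p was under 0.05 for 1 gene. On all 6 arrays 9 of the 11 lay under the array median, and LYZ lay under the highest control value of 4.03. The pan-leukocyte marker PTPRC had 4.33 ± 0.12 in T98G and 4.55 ± 0.36 in U87MG, not far above the control probe sets. ITGA2B, the platelet subunit, had a difference of 0.21 (-0.12 to 0.54), and limma called 0 of 4 platelet markers, 0 of them having an unadjusted p under 0.05. The platelet list averaged 5.98 to 6.02 on T98G arrays and 5.91 to 6.08 on U87MG arrays.

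Of 7 beta subunit genes, 1 was higher and 1 lower in T98G. ITGB3, which joins ITGAV in the vitronectin receptor, had 6.87, 7.57 and 6.48 on the T98G arrays, against 8.60, 9.25 and 9.25 on the U87MG arrays. The T98G arrays were spread over more than 1 log2 unit and still lay below every U87MG array. ITGB3 was 4.17-fold lower in T98G on this probe set (log2 -2.06, SE 0.27, limma adjusted p = 1.90e-04). Its 7 probe sets all had negative differences, from log2 -2.06 to -0.31, and 4 of them were called. Without multiply matching probe sets the gene was represented by a probe set at log2 -0.70 and was not called. That probe set was dimmer, at 5.67 ± 0.13 in T98G and 6.37 ± 0.29 in U87MG. ITGB8, which joins ITGAV to activate latent TGF-beta, had 5.87, 5.91 and 6.24 on the T98G arrays, against 4.78, 4.78 and 4.92 on the U87MG arrays. It was higher on every T98G array, by 2.26-fold (log2 1.18, SE 0.12, limma adjusted p = 4.34e-05), and its second probe set was called too, although its 3 U87MG values lay within the range of the control probe sets. With values under 4.03 set to 4.03 it gave at least 2.21-fold. The filter on dim probe sets left ITGB8 without a value.

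ITGB1, the beta subunit shared by most matrix-binding integrins, had 13.45 ± 0.07 in T98G and 13.97 ± 0.15 in U87MG (log2 -0.52, 95% interval -0.77 to -0.27, limma adjusted p = 0.00383). The lines did not overlap, but the difference was short of 2-fold. The 5 ITGB1 probe sets ran from log2 -0.72 to -0.02. Those at log2 -0.15, -0.05 and -0.02 had some or all arrays under the highest control value. Their small differences thus cannot tell whether the lines were alike in ITGB1. The probe sets above that value on every array gave log2 -0.52 and -0.72. ITGB5, another partner of ITGAV, had 10.49 ± 0.04 in T98G and 10.48 ± 0.17 in U87MG (log2 0.01, -0.24 to 0.27). Its 4 probe sets disagreed, at log2 -0.88 to 0.21, so the brightest probe set alone does not show equal ITGB5 levels. ITGB4, the hemidesmosome partner of ITGA6, had a difference of 0.06 (-0.24 to 0.36), and ITGB7, a lymphocyte beta subunit, -0.02 (-0.30 to 0.26).

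**Figure D2:**
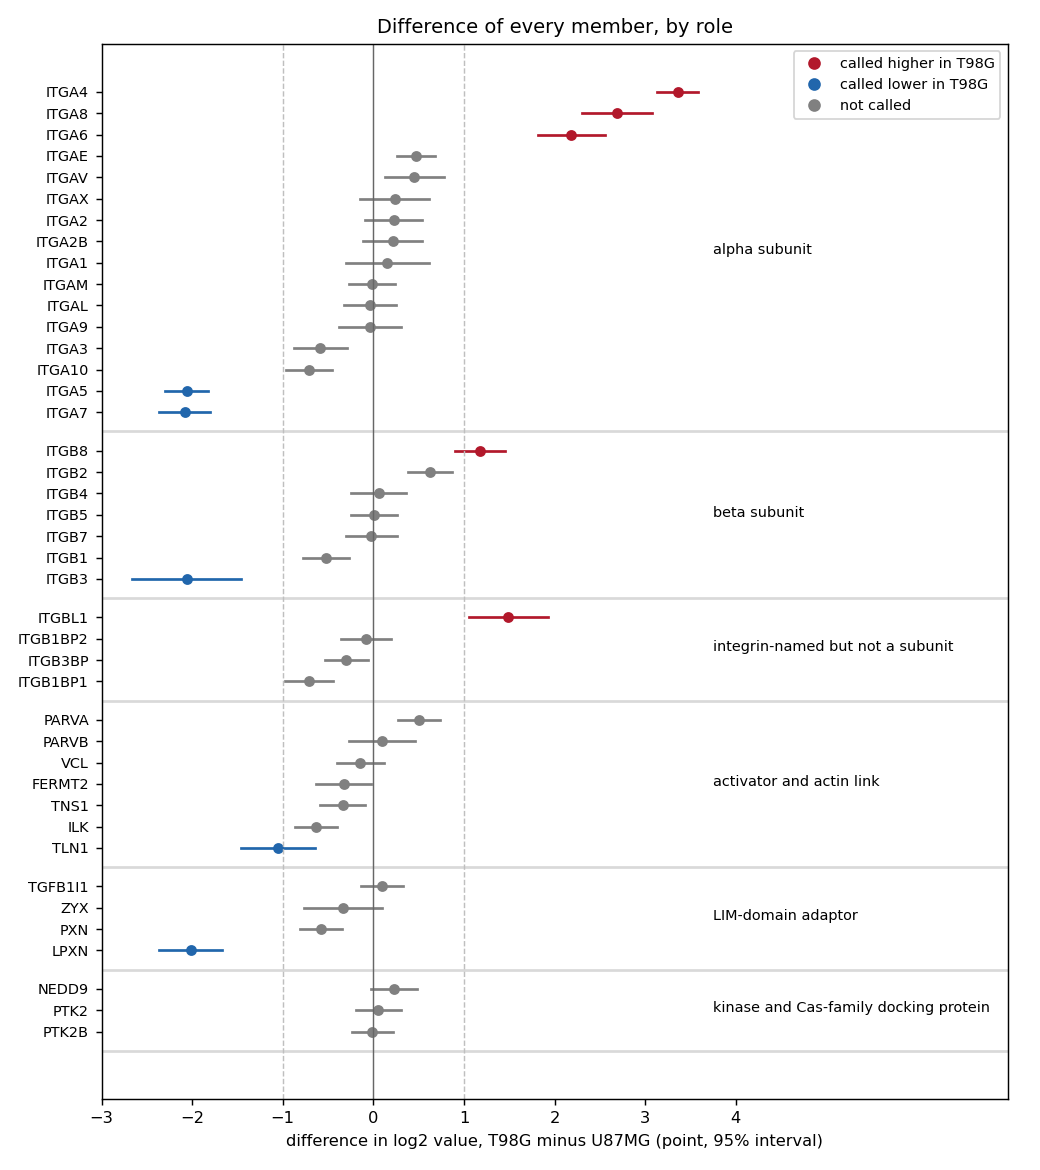
Difference in log2 value, T98G minus U87MG (x axis), for each of the 41 members grouped by role, with 95% intervals from limma. Dashed lines mark a 2-fold difference; the widest differences were those of ITGA4 (3.36) and ITGA8 (2.69), and all 3 kinase and Cas-family genes lay within 2-fold.

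Of 4 integrin-named genes that are not receptor subunits, 1 was called. ITGBL1, a secreted protein with repeats like those of beta subunits, had 10.52, 10.88 and 10.78 on the T98G arrays, against 9.26, 9.64 and 8.82 on the U87MG arrays. It was higher on all T98G arrays, by 2.81-fold (log2 1.49, SE 0.19, limma adjusted p = 1.90e-04), and at log2 1.02 on its second probe set, which was also called. ITGB1BP1, which encodes ICAP1, an inhibitor that competes with talin for the ITGB1 tail, had 11.01 ± 0.01 in T98G and 11.72 ± 0.19 in U87MG (log2 -0.71, -0.97 to -0.45, limma adjusted p = 8.43e-04). That was short of 2-fold, while its second, dimmer probe set was called lower at log2 -1.18. ITGB3BP, also known as a centromere protein, had a difference of -0.30 (-0.54 to -0.06) and the muscle protein gene ITGB1BP2 -0.08 (-0.36 to 0.19).

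Genes that activate integrins or tie them to actin numbered 7, of which none was higher and TLN1 was lower in T98G. Talin, the product of TLN1, binds the beta tail and triggers the active shape of the receptor. TLN1 had 9.12, 9.52 and 9.19 on the T98G arrays, against 10.02, 10.24 and 10.72 on the U87MG arrays. The lines did not overlap on its single probe set. The difference of 2.08-fold (log2 -1.05, SE 0.18, limma adjusted p = 0.00114) was the smallest of the called members. The call was lost at the 2-fold minimum without T98G replicate 1 (log2 -0.97) or without U87MG replicate 3 (log2 -0.86), the array with the low poly-A controls. FERMT2, the kindlin that acts beside talin, had 10.50 ± 0.21 in T98G and 10.82 ± 0.16 in U87MG (log2 -0.32, -0.63 to -0.02, limma adjusted p = 0.0840). Limma called 0 of the 7 higher, PARVA alone having a positive difference with an adjusted or unadjusted p under 0.05.

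ILK, the pseudokinase core of the complex with PINCH and parvin, had 11.88 ± 0.09 in T98G and 12.51 ± 0.09 in U87MG (log2 -0.63, -0.86 to -0.40, limma adjusted p = 7.49e-04). PARVA, an actin-binding partner of ILK, had 10.64 ± 0.11 in T98G and 10.14 ± 0.08 in U87MG (log2 0.51, 0.27 to 0.74, limma adjusted p = 0.00322). ILK and PARVA thus differed in opposite directions, each without overlap between lines and each short of 2-fold. The 3 PARVA probe sets ran from log2 0.02 to 1.25, the last of them called. The related PARVB had 0.10 (-0.26 to 0.45), and vinculin (VCL), which reinforces the link of talin to actin, -0.14 (-0.40 to 0.12). TNS1, a tensin that binds actin and beta tails, had 6.86 ± 0.11 in T98G and 7.19 ± 0.13 in U87MG on its brightest probe set (log2 -0.34, -0.59 to -0.09, limma adjusted p = 0.0347). Of its 5 probe sets, 2 were called lower, at log2 -1.21 and -1.98.

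Among 4 genes of LIM-domain adaptors, LPXN was lower in T98G. LPXN encodes leupaxin, a paxillin relative first known from leukocytes. It had 9.53, 9.63 and 9.09 on the T98G arrays, against 11.27, 11.44 and 11.58 on the U87MG arrays, with no overlap. The difference was 4.05-fold (log2 -2.02, SE 0.15, limma adjusted p = 5.13e-06), on a single probe set that is of the multiply matching kind. The leukocyte marker LCP1 ran the same way, at 7.19 ± 0.10 in T98G and 7.95 ± 0.42 in U87MG. LAPTM5 and CORO1A ran the other way, CORO1A at 7.56 ± 0.01 in T98G and 6.64 ± 0.08 in U87MG. The part of these markers in the LPXN difference was not tested. Paxillin (PXN), the main docking adaptor of focal adhesions, had 10.52 ± 0.10 in T98G and 11.10 ± 0.09 in U87MG (log2 -0.58, -0.81 to -0.35, limma adjusted p = 0.00138). TGFB1I1, which encodes the paxillin relative Hic-5, had a difference of 0.10 (-0.13 to 0.33). Zyxin (ZYX), which recruits actin regulators to mature adhesions, had -0.34 (-0.77 to 0.10), with overlapping lines. Limma called 0 of the 4 higher, and 0 were higher when the p was left unadjusted.

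The kinases and the Cas-family docking protein were not called on their brightest probe sets, and none had an unadjusted p under 0.05. PTK2, which encodes focal adhesion kinase, had 10.70, 10.67 and 10.67 on the T98G arrays, against 10.76, 10.68 and 10.44 on the U87MG arrays, and the lines overlapped. Its difference was 0.05 (95% interval -0.20 to 0.30), an interval well inside 2-fold, and its second probe set gave 0.02. PTK2B, which encodes the related kinase PYK2, had -0.01 (-0.24 to 0.21). NEDD9, a docking protein of the Cas family linked to movement of glioma cells, had 0.23 (-0.02 to 0.48) on its brightest probe set. The second NEDD9 probe set had 5.58, 5.00 and 5.31 on the T98G arrays, against 3.63, 3.57 and 3.42 on the U87MG arrays. There the U87MG values were within the range of the control probe sets, and with values under 4.03 set to 4.03 NEDD9 was at least 2.40-fold higher in T98G.

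Several probe sets were available for 22 of the 41 members, and they bear on how firmly a call can be read. Of the 10 called members, 6 had several probe sets, and all of these but ITGB3 had every probe set called in the same direction. ITGA5, ITGA8, LPXN and TLN1 had 1 probe set each, so agreement was fixed in advance for them. Among members that were not called, 4 had another probe set that was, namely PARVA and NEDD9 higher in T98G and TNS1 and ITGB1BP1 lower. Over the 86 probe sets, 12 were called higher and 12 lower.

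**Figure D3:**
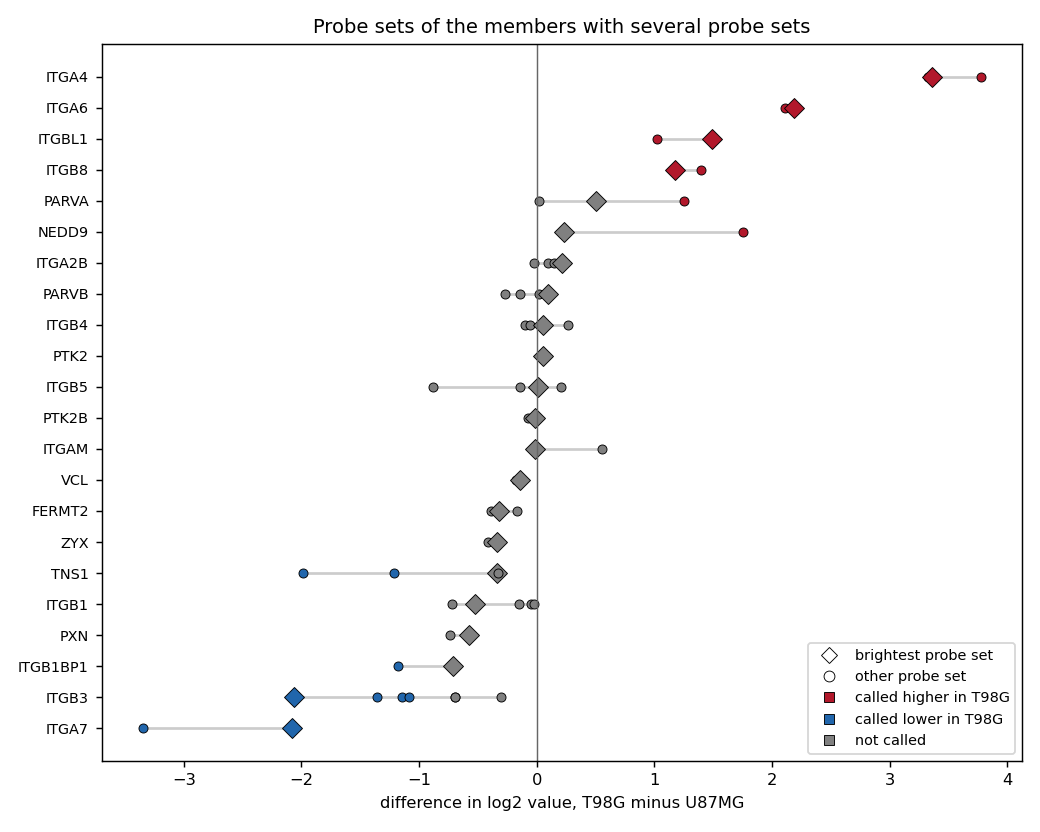
Difference in log2 value, T98G minus U87MG (x axis), of each probe set of the 22 members with several; diamonds are the brightest probe set of a gene, and colours give the call when every probe set was fitted singly. ITGA4 and ITGA6 probe sets lay close together, while those of TNS1, NEDD9 and ITGB5 were spread.

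In a list of 44 measured ligand genes, 14 were higher and 7 lower in T98G, against 7.01% and 6.56% of all genes. The median difference of the list was 0.06. THBS1, COL3A1 and COL4A1 had the widest positive differences. COL4A1, a chain of basement membrane collagen, had 11.34 ± 0.45 in T98G and 6.39 ± 0.43 in U87MG (31.0-fold), and COL3A1, a fibrillar collagen chain, 10.01 ± 0.57 in T98G and 4.79 ± 0.45 in U87MG (37.3-fold). THBS1, which encodes thrombospondin-1, reached log2 6.06, with probe sets from 0.66 to 7.88, and COL3A1 probe sets began at 0.07. The widest negative differences were those of SPP1 (osteopontin, log2 -5.05), COL1A1 (log2 -3.90, with probe sets up to 0.09) and LTBP1, which tethers latent TGF-beta to the matrix, at 7.50 ± 0.12 in T98G and 11.32 ± 0.23 in U87MG (14.1-fold lower). The list held 12 genes of basement membranes, namely the laminin and collagen IV chains, NID1, AGRN and HSPG2, a grouping made after the values were seen. Of these, COL4A2, NID1, LAMB1, LAMA4, HSPG2 and AGRN were called higher besides COL4A1. LAMA2, LAMA5, LAMA1, LAMB2 and LAMC1 were not called, at log2 -0.49, -0.36, -0.31, -0.17 and 0.04. LAMA4 and AGRN each had another probe set near 0, at log2 -0.01 and -0.03, and AGRN was not called without U87MG replicate 1 (log2 0.96).

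Some listed ligands of ITGA4 and ITGA5 were looked up after their values were seen, and those of ITGA4 went both ways. VCAM1, a ligand of ITGA4, was higher in T98G like its receptor subunit, at 8.78 ± 0.86 in T98G and 4.87 ± 0.18 in U87MG (log2 3.91, SE 0.34, limma adjusted p = 1.43e-05). MADCAM1, also a ligand of ITGA4, was lower in T98G but not called, at 6.81 ± 0.10 in T98G and 7.26 ± 0.15 in U87MG (log2 -0.44, limma adjusted p = 0.0107). SPP1, a further ITGA4 ligand, was called lower, at log2 -5.05. FN1, which encodes fibronectin, the ligand of both, was not called, at 13.34 ± 0.24 in T98G and 13.76 ± 0.27 in U87MG (log2 -0.42, -0.79 to -0.05, limma adjusted p = 0.0709).

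**Figure D4:**
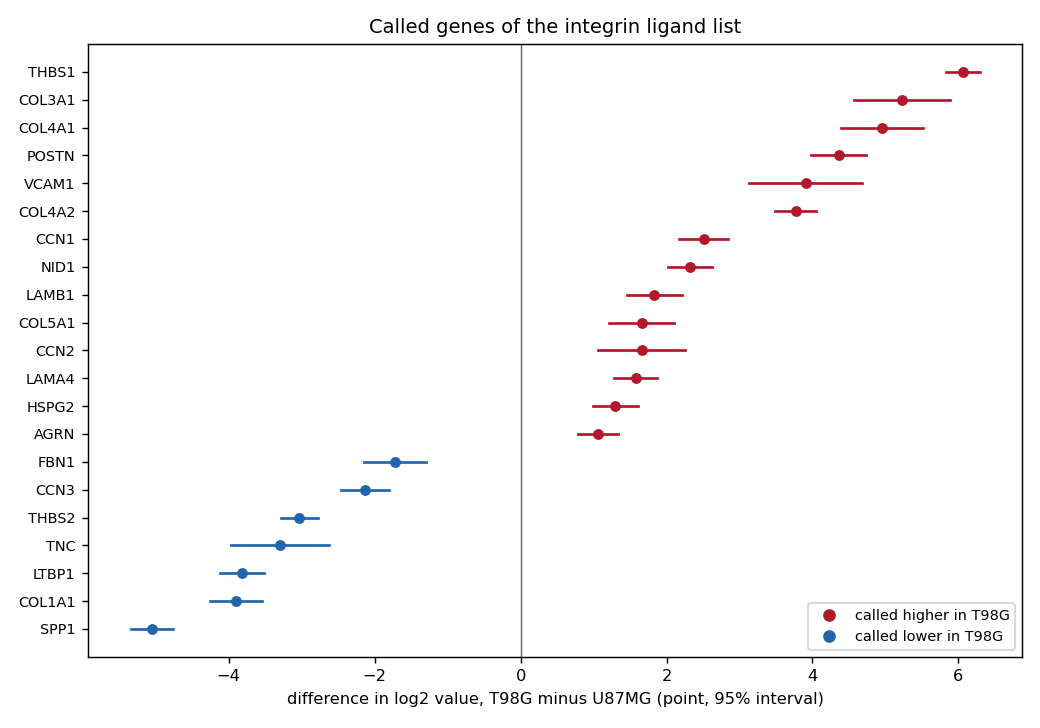
Difference in log2 value, T98G minus U87MG (x axis), with 95% intervals from limma, for the 21 called genes of the integrin ligand list. Of these, 14 were higher in T98G, up to log2 6.06 for THBS1, and 7 were lower, down to log2 -5.05 for SPP1.

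Other focal adhesion scaffold genes went both ways, with 3 higher, 4 lower and 18 not called of 25 in T98G. Called shares over all genes were 7.01% higher and 6.56% lower, and the median difference of the scaffold genes was -0.04. TNS3, a tensin like TNS1, was the widest of them, at 13.13 ± 0.18 in T98G and 8.52 ± 0.33 in U87MG (24.4-fold higher). The other 2 higher genes were KANK1, which organises the rim of focal adhesions (4.83-fold), and the actin-bundling protein gene PALLD (2.05-fold), which was not called without U87MG replicate 3 (log2 0.86). SORBS2, a vinculin-binding adaptor gene, was at 5.50 ± 0.23 in T98G and 9.71 ± 0.07 in U87MG (18.5-fold lower), although its second probe set had only log2 -0.27. PDLIM5, and RSU1, which encodes a partner of PINCH, were 2.45-fold and 2.41-fold lower, and each had a probe set close to 0, at log2 -0.01 and -0.20.

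Of 34 focal adhesion signalling genes outside the members, 5 were higher, 3 lower and 26 not called. Over all genes 7.01% were called higher and 6.56% lower, and the list had a median difference of 0.01. Without U87MG replicate 3, whose poly-A controls were low, EFS and PTPRA alone were called higher. EFS, another gene of the Cas family, had 8.15 ± 0.09 in T98G and 5.06 ± 0.07 in U87MG (8.50-fold higher). PTPRA, a phosphatase that activates SRC-family kinases, and BCAR3, an adaptor that binds Cas proteins, were 2.53-fold and 2.30-fold higher, but BCAR3 had log2 0.98 and was not called without U87MG replicate 3. FYN, a SRC-family kinase that acts with focal adhesion kinase, had 8.03 ± 0.01 in T98G and 11.36 ± 0.23 in U87MG (9.99-fold lower, limma adjusted p = 4.07e-08), on all 3 of its probe sets, at log2 -3.51 to -3.12. ARHGEF6, an exchange factor for RAC1 and CDC42, was 6.00-fold lower, and CDC42 itself 2.83-fold lower, although CDC42 probe sets reached -0.02.

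Integrin membrane partners and activators had 0 higher and 4 lower of 19 by limma, against 7.01% and 6.56% of all genes. Their median difference was -0.22. With the p left unadjusted and no fold asked, 4 partners were higher and 8 lower, against 3024 and 2695 of all 11963 genes. PLAUR, the urokinase receptor that binds integrins laterally, had 10.09 ± 0.19 in T98G and 11.99 ± 0.31 in U87MG (3.73-fold lower). LRP1, an endocytic receptor that clears integrins and PLAUR from the surface, and SDC2, a syndecan co-receptor, were 3.15-fold and 2.82-fold lower. The fourth, APBB1IP, encodes RIAM, which brings talin to the membrane, and was 2.10-fold lower. It was not called without T98G replicate 1 (log2 -0.94), without U87MG replicate 1 (log2 -0.97) or against 1.5-fold by limma's treat (adjusted p = 0.0627).

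The line labels were set against marker genes. VIM and CD44, common in glioblastoma lines, had 14.59 ± 0.05 and 13.93 ± 0.06 in T98G and 14.85 ± 0.05 and 13.68 ± 0.14 in U87MG. Of 12 glial markers, the transcription factor gene SOX9 was 3.98-fold higher in T98G, and the intermediate filament gene NES and the glutamate transporter gene SLC1A3 were 5.85-fold and 2.05-fold lower. The astrocyte markers GFAP and S100B were dim in both lines, at 6.42 ± 0.04 and 4.13 ± 0.16 in T98G and 6.52 ± 0.04 and 4.23 ± 0.08 in U87MG. On all 6 arrays 7 of the 12 lay under the array median, namely GFAP, S100B, AQP4, SLC1A2, ALDH1L1, SOX2 and FABP7. Of 8 epithelial markers, KRT18 was called higher in T98G (12.05 ± 0.06 in T98G, 6.57 ± 0.09 in U87MG), and of 7 endothelial markers KDR was called lower (5.03 ± 0.08 in T98G, 8.29 ± 0.25 in U87MG). The epithelial marker EPCAM ran the other way from KRT18, short of 2-fold (log2 -0.89, limma adjusted p = 0.00161).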

How the data were processed

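The deposited table held log2 values per probe set for 6 arrays, 3 of T98G and 3 of U87MG. Per the submitters' processing notes the authors used RMA and limma; neither version is stated. Because RMA puts all arrays on 1 distribution, a difference in RNA content between lines would be lost, and dim transcripts are compressed. With 3 arrays per line precision is limited (median residual SD 0.146).

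Of 22277 probe sets, 19064 had 1 gene symbol in the platform annotation, and symbols were updated by Entrez identifier (19052 matched, RefSeq, GRCh38.p14). Probe sets with several symbols were not used, 4 of which listed a member. Each gene was represented by its brightest probe set. The lines were compared by limma 3.58.1 in R 4.3.3 (lmFit, eBayes, two-sided, 4 residual degrees of freedom) over all genes. In simulated data for T98G minus U87MG on 11963 genes, a shift of log2 1.5 was recovered in 93 of 100 genes. One of log2 3 was recovered in 100 of 100, with 2 false calls among the unshifted genes. The simulated noise was normal and independent between genes and arrays. Differences as small as those of TLN1, ITGB8 and ITGBL1 were not simulated.

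Members and gene lists were chosen with earlier results of these data known. All members were named, with values on every array for the called ones, and the 3 widest called genes per direction from each list of ligands, scaffold, signalling or partner genes. Genes singled out after their values were seen are marked. Promoter windows came from RefSeq. Alternatives covered the probe set per gene, dim and multiply matching probe sets (identifiers ending in _x_at, _s_at or _a_at), normalization, the variance model, the call rule, the replicate number and each array left out.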

Additional observations from a re-analysis of the deposited data

How the results depend on the processing

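The 10 called members had 157 values under 16 alternatives, of which 153 kept direction and call, 4 were not called and 0 changed sign. The 4 were TLN1 against 1.5-fold by limma's treat (adjusted p = 0.0970), TLN1 without T98G replicate 1 or U87MG replicate 3, and ITGB3 without multiply matching probe sets. Not all of the 153 could have failed, since dropping the fold minimum keeps every call. Fitting every probe set singly leaves each difference unchanged, as does the mean of probe sets for a member with 1 probe set. Leaving out each of the 6 arrays in turn gave 5 members higher each time and 4 to 5 lower in T98G, with 1609 to 1653 genes called in all, against 1624. With no fold minimum, 9 members were higher, 13 lower, and 4942 genes were called. Without multiply matching probe sets 31 members were tested and 3 were lower, LPXN and TLN1 having no other probe set, and 1098 genes were called. That setting also called TNS1 (log2 -1.21) and NEDD9 (at least 2.40-fold, its U87MG values being within the range of the control probe sets). With probe sets kept if either line's mean passed 7.63, 27 members were tested and 4 were higher.

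The replicate numbers were not used to pair the arrays in the main comparison. Deviations of same-numbered arrays of the lines correlated at 0.154, 0.0680 and 0.0448 across genes, against -0.120 to 0.0557 for different numbers. Of 6 arrays, 5 correlated best with their own number, so a weak pairing may be present. The replicate block left 5 members higher and 5 lower and called 1626 genes.

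Differences of 10 uncalled members, all within 0.16 of 0, changed sign under some alternative. The mean of the gene's probe sets gave 0.27 for ITGAM, -0.20 for ITGB5 and -0.043 for PARVB. ITGB5 had -0.88 without multiply matching probe sets, -0.024 with quantile normalization repeated and -0.0097 with arrays centred. With each array left out in turn, the ranges were -0.025 to 0.33 for ITGA1, -0.22 to 0.073 for ITGA9, -0.12 to 0.093 for ITGAL, -0.077 to 0.072 for ITGAM, -0.065 to 0.19 for ITGB4, -0.047 to 0.11 for ITGB5, -0.089 to 0.10 for ITGB7, -0.045 to 0.26 for PARVB, -0.041 to 0.12 for PTK2 and -0.055 to 0.036 for PTK2B. The cause was not tested.

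List counts moved by over 1.5 times under 4 alternatives. Without multiply matching probe sets, ligands had 7 higher and 3 lower of 30, scaffold genes 1 higher and 1 lower of 19, and signalling genes 3 higher and 1 lower of 22. With no fold minimum, scaffold genes had 6 higher and 7 lower, signalling genes 7 lower, and partners 4 higher and 7 lower. Without U87MG replicate 3, signalling genes had 2 higher, and with the mean of probe sets scaffold genes had 1 lower. Among named genes of the lists, THBS1 (log2 0.66), COL3A1 (log2 0.072), LAMA4 (log2 0.42), AGRN (log2 0.042), SORBS2 (log2 -0.27), RSU1 (log2 -0.20) and CDC42 (log2 -0.019) were not called without multiply matching probe sets. With the mean of probe sets RSU1 (log2 -0.73), PDLIM5 (log2 -0.94), CDC42 (log2 -0.44), LAMA4 (log2 0.55), HSPG2 (log2 0.9961) and AGRN (log2 0.51) were not called.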
